A study of Mus musculus with 4 samples.

Results

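Spata3 is a mouse gene on chromosome 1, named for its association with spermatogenesis, and the read clusters described here are those of its RNA in a crosslinking experiment on IGF2BP3. A cluster belonged to Spata3 when its centre lay inside the gene span, chr1:86016816-86029958 in mm10, on the plus strand. This gave 32 of the 337234 clusters listed for replicate 1 and 25 of the 216354 listed for replicate 2, for 1 gene among the 14251 that had a cluster in both replicates. Spata3 was chosen by measured values of these same clusters, namely the strength of its cluster in the 3′ untranslated region (3′UTR), so its values are a description and no test was made on them.

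IGF2BP3 belongs to a family of RNA-binding proteins that attach to the coding sequence and 3′UTR of messenger RNAs and affect how long these RNAs last, where they go and when they are translated. Male germ cells depend on such control, because transcription stops while the spermatid nucleus is being compacted and many messenger RNAs are made early, stored with proteins and translated later. The 3′UTR, the stretch between the stop codon and the poly(A) tail, carries many of the elements that such proteins bind.

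The samples were whole testes, with germ cells and somatic cells together, from wild type C57BL/6 mice aged 8 weeks, with 2 testes in a preparation. RNA and protein were joined by UV light of 254 nm, given 3 times at 400 mJ/cm2, and enhanced crosslinking and immunoprecipitation (eCLIP) with an antibody to IGF2BP3 gave the IP library. A share of 2% of the lysate, taken without the antibody, gave the size-matched input (SMInput) library that served as its background. There were 2 IP and 2 SMInput libraries, paired by replicate, 4 samples in all. The library totals, worked out from the listed values, were 5133438 IP and 8706391 SMInput reads in replicate 1, and 4637612 IP and 16696122 SMInput reads in replicate 2.

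The SMInput libraries held RNA of cell types of the testis, the tissue that the labels name. Of the spermatid markers, Prm1 and Prm2, which encode the protamines that pack sperm DNA, reached 358 and 426 SMInput reads in their highest cluster of replicate 1, and 639 and 665 in replicate 2. Summed over each marker list, the highest SMInput cluster of every gene came to 128 and 120 RPM (reads per 1000000 reads of the library) for 5 spermatid genes, 46.2 and 36.7 for 4 spermatocyte genes, and 6.19 and 3.96 for 3 spermatogonial genes. Germ cell markers of each stage were therefore found in both replicates, though most of the spermatogonial sum came from Uchl1 (36 and 38 reads), and Zbtb16 had 5 and 7. Markers of somatic cells were found too, at 28.4 and 27.5 RPM for 3 Sertoli cell genes and 38.8 and 33.0 for 3 Leydig cell genes. A single gene carried most of each somatic sum too, Clu with 218 and 393 SMInput reads in its highest cluster for Sertoli cells and Insl3 with 319 and 521 for Leydig cells, while Sox9 had 14 and 17 and Star 3 and 8. Alb and Ins2, made in liver and pancreas, had 0 clusters.

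Each cluster carries the log2 of its fold change, the IP reads over the SMInput reads after each is divided by its library total, and the −log10 of a P value for that comparison. A cluster counted as significant when both were at least 2. All 32 clusters of Spata3 passed in replicate 1, where 4.92% of all clusters did, and all 25 passed in replicate 2, where 13.2% did. The gene was selected on these values, so nothing is read from that difference. The cluster of Spata3 nearest to the fold change threshold had a log2(fold change) of 2.55 in replicate 1 and 3.05 in replicate 2, the lowest −log10(P value) was 6.06 and 16.9, and 0 clusters of the gene lay outside the thresholds.

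The median log2(fold change) of the Spata3 clusters was 4.34 in replicate 1 and 4.37 in replicate 2, and the highest was 6.76 and 6.92. Over all significant clusters the medians were 2.85 and 3.07. At the lowest read numbers that the listed values allow, the IP held 22 to 643 reads in a Spata3 cluster of replicate 1 and 30 to 619 in replicate 2, against 3 to 35 and 5 to 54 SMInput reads. In each Spata3 cluster the reads thus came mostly from the IP. The −log10(P value) stood at 400, the top of the listed scale, in 6 clusters of Spata3 in replicate 1 and 14 in replicate 2, of 155 and 327 in the whole tables. By the reads worked out, the highest value below 400 from a chi-square test was 88.2 in replicate 1 and 88.0 in replicate 2. A value of 400 is thus a cap that stands for any P value beyond these, not a measured size. Read numbers of clusters at 400 are lower limits, written with "at least" where a single cluster is described.

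The messenger RNA of Spata3, taken as the RefSeq Select transcript, has 1104 bases in 4 exons: a 5′UTR of 104 bases, a coding sequence of 579 bases with the stop codon, and a 3′UTR of 421 bases. The clusters lay on its exons, apart from 1 in each replicate on an alternative last exon between exons 3 and 4, with 0 elsewhere in introns, 0 on the opposite strand inside the span and 0 on the same strand in the 3000 bases on either side, in both replicates. They covered 77.7% of the messenger RNA in replicate 1 and 72.5% in replicate 2. Exon 2 (172 bases) and exon 3 (144 bases) were covered from end to end in both replicates. The first 85 bases of exon 1 in replicate 1 and its first 139 in replicate 2 had no cluster. Exon 4, which holds most of the 3′UTR, had none over its first 79 and 137 bases and none over its last 29 and 28 bases. The enriched stretch of exon 4 was therefore its middle and later part, ending just short of the annotated end of the transcript.

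**Figure D1:**
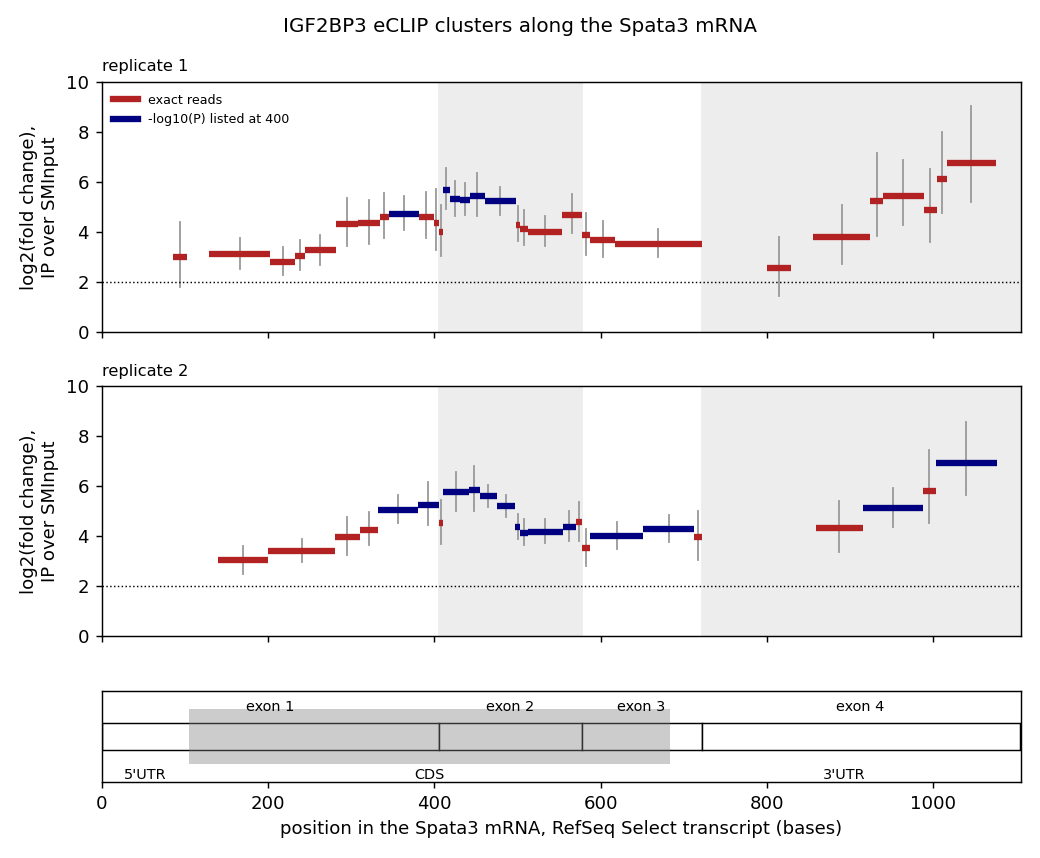
Log2(fold change) of IP over SMInput (y axis) of each Spata3 cluster along the 1104 bases of the messenger RNA (x axis), in replicate 1 (top) and replicate 2 (middle), with exons, coding sequence and untranslated regions in the lower track. Coloured bars span each cluster, grey vertical lines are 95% counting intervals, the dotted line is the threshold of 2, the clusters of an alternative last exon are not drawn, and in both replicates the highest bar lies near the end of exon 4, at 6.76 and 6.92.

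By fold change, the strongest 3′UTR signal of Spata3 lay in exon 4, close to the end of the transcript. In replicate 1 the cluster chr1:86029874-86029932 held 192 IP reads and 3 SMInput reads, a log2(fold change) of 6.76 with a 95% interval of 5.19 to 9.05 and a −log10(P value) of 77.2. In replicate 2 the cluster chr1:86029861-86029933 held at least 168 IP reads and at least 5 SMInput reads, a log2(fold change) of 6.92 with an interval of 5.67 to 8.56 and a −log10(P value) of 400. As a ratio these are 109-fold (36.6 to 531) and 121-fold (50.8 to 377). The ends of the clusters lay 29 and 28 bases before the end of the transcript, so the same stretch was enriched in both replicates. Each ratio lay inside the wide interval of the other. The intervals are exact (Clopper-Pearson) and cover counting error only. In replicate 1 the width comes from the 3 SMInput reads, and in replicate 2 the interval uses the lowest reads possible and is the widest the listed values allow.

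Which 3′UTR cluster of Spata3 counts as strongest depended on the measure. Ordered by −log10(P value), with ties broken by fold change, the first in replicate 1 was chr1:86024367-86024384 in exon 2. This exon 2 cluster held at least 335 IP and at least 13 SMInput reads, with a log2(fold change) of 5.45 (4.66 to 6.37). Its −log10(P value) was listed at the cap of 400. The exon 4 cluster had 77.2, by Fisher's exact test at its 3 SMInput reads, so the size of that gap is not known. In replicate 2 the cluster in exon 4 was tied at 400 with clusters of exon 2, and the tie-break by fold change alone put it first. By IP reads, at the lowest numbers possible, the strongest cluster lay in exon 2 in both replicates, with log2 values of 5.23 and 5.60. Exon 2 enters the 3′UTR only through 1 of the 9 basic GENCODE transcripts of Spata3, whose coding sequence ends 9 bases into that exon. In the RefSeq Select transcript exon 2 is coding throughout. With coding sequence given precedence over 3′UTR, or with curated RefSeq transcripts, both chosen as alternatives for this value after seeing the data, the strongest cluster lay in exon 4 in both replicates, at 6.76 and 6.92. The number of Spata3 clusters in the 3′UTR went from 16 and 15 to 8 and 6 under either of them. The strongest 3′UTR peak of Spata3 was thus the exon 4 cluster by fold change, or with exon 2 read as coding. By IP reads, while exon 2 counts as 3′UTR, the exon 4 cluster was not the strongest in replicate 1. It held 192 reads there, against at least 643 in exon 2. In replicate 2 the reads of both exons are lower limits, so their order by IP reads is not known.

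Along exon 4 the fold change of Spata3 was higher toward the 3′ end, with the exception of 1 cluster of replicate 1 (4.87). In replicate 1 the clusters from the 5′ to the 3′ side held 31, 66, 90, 153, 86, 166 and 192 IP reads beside 9, 8, 4, 6, 5, 4 and 3 SMInput reads. In replicate 2 they held 61, at least 164, 78 and at least 168 IP reads beside 11, at least 17, 5 and at least 5 SMInput reads. In replicate 1 the last cluster was thus the highest in IP reads and the lowest in SMInput reads, while in replicate 2 the IP reads of the clusters at 400 cannot be ordered, since they are lower limits. The log2(fold change) went from 2.55 at the first cluster of replicate 1 to 6.76 at the last, and from 4.32 to 6.92 in replicate 2. Clusters differ in width, and neighbouring clusters can share reads, so their reads were not added up.

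Joining the significant clusters that overlapped between the replicates gave 5 shared sites in Spata3, 1 on each of the 4 exons and 1 on an alternative last exon, of 3896 shared sites in all. The log2(fold change) of the strongest cluster was 6.76 and 6.92 on exon 4 (6.84 ± 0.11, SD, n = 2) and 5.70 and 5.86 on exon 2 (5.78 ± 0.11). On exon 1 it was 4.74 and 5.25 (4.99 ± 0.36), and on exon 3 it was 3.88 and 4.30 (4.09 ± 0.30). On the alternative last exon, chr1:86029212-86029262, it was 3.22 and 3.95 (3.58 ± 0.51). The order of the exons was thus the same in both replicates. Between exon 3 and the alternative last exon the replicate values overlapped, so these neighbours did not differ beyond their spread, while the replicate values of the other neighbours in the order were apart. The counting intervals overlapped between all neighbours in both replicates, for exon 4 and exon 2 with 5.19 to 9.05 against 4.94 to 6.59 and 5.67 to 8.56 against 5.02 to 6.83. Intervals of clusters at 400 use the lowest reads possible and are therefore the widest possible, so with more reads some of these overlaps could be absent. On exons 2 and 3 the strongest clusters of the replicates did not overlap, and on exon 1 they met only at base 86022325. The mean and SD on these exons are therefore over different stretches of the exon.

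**Figure D2:**
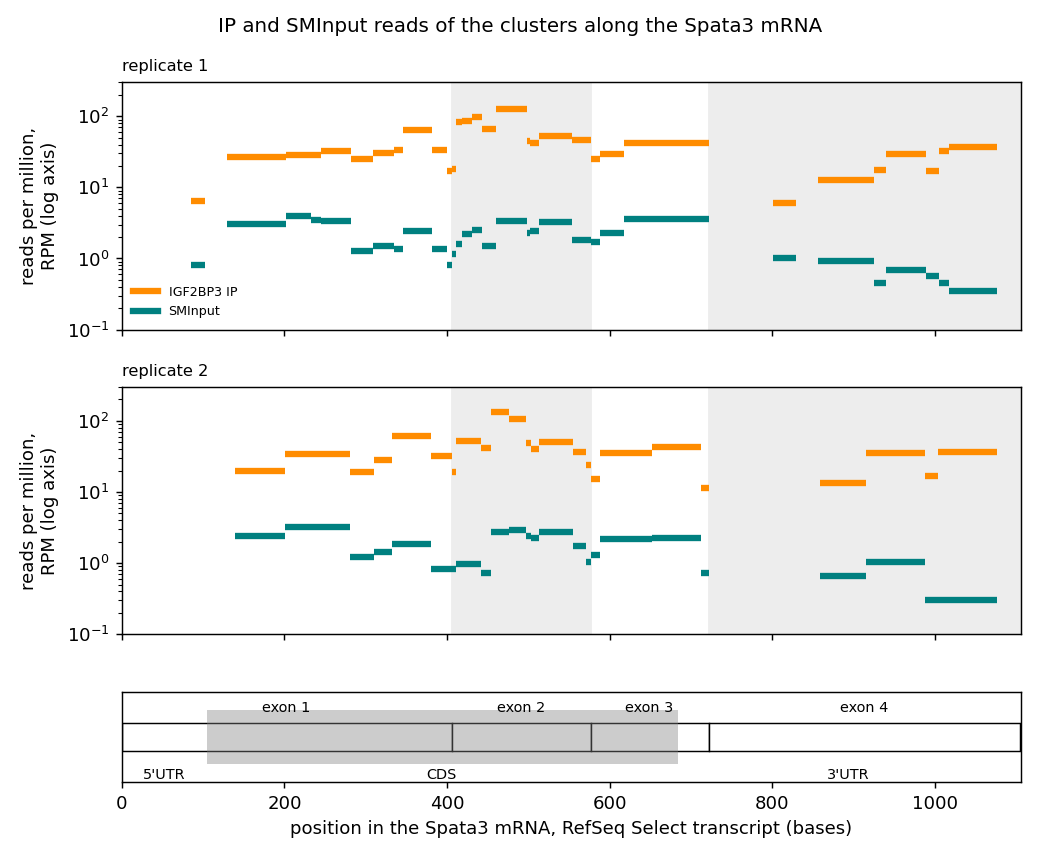
IP reads (orange) and SMInput reads (teal) of each Spata3 cluster, in RPM on a log axis (y axis), along the messenger RNA (x axis, bases), in replicate 1 (top) and replicate 2 (middle). Bars span each cluster, without error bars and at the lowest possible reads for clusters listed at 400, the alternative last exon is not drawn, and the IP is highest in exon 2, at 125 and 133 RPM, while the SMInput is lowest near the end of exon 4, at 0.345 and 0.299.

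By IP reads, exon 2 of Spata3 had the highest lower limit in both replicates. Replicate 1 had at least 643 IP reads in the highest exon 2 cluster, and replicate 2 had at least 619, which is 125 and 133 RPM. At the lowest read numbers possible, the highest cluster had 64.3 and 61.7 RPM on exon 1, 41.5 and 43.6 on exon 3, 37.4 and 36.2 on exon 4, and 4.29 and 6.47 on the alternative last exon. In replicate 2 these are lower limits on exons 1 to 4, so no order of these exons by IP reads was read from it, and in replicate 1 they are exact on exons 3 and 4 and on the alternative last exon. In the SMInput, again at the lowest numbers possible, the highest cluster reached 4.02 and 3.23 RPM on exon 1, 3.33 and 2.93 on exon 2, 3.56 and 2.22 on exon 3, 1.03 and 1.02 on exon 4, and 0.459 and 0.419 on the alternative last exon. In replicate 1, where the reads of exon 4 are exact, its highest cluster had fewer SMInput reads and fewer IP reads than those of exons 1, 2 and 3. In replicate 2 the SMInput value of exon 4 is a lower limit and gives it no place in the order. Why the SMInput differed between exons was not tested. Where SMInput levels of different genes are given, fewer cells of a type and less RNA per cell, among other things, cannot be told apart in whole testes.

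Of the 32 clusters of replicate 1, 30 overlapped a cluster of replicate 2, and all 25 of replicate 2 overlapped one of replicate 1, in 47 pairs. The same held for 33.0% of all significant clusters of replicate 1 and for 18.5% of those of replicate 2. Spata3 was chosen by the strength of its clusters, so nothing is read from that difference. The log2(fold change) was higher in replicate 2 in 35 pairs and higher in replicate 1 in 12, with a median difference of 0.37, replicate 2 minus replicate 1, and a range of −0.87 to 2.05. Over all 6590 such pairs of significant clusters the median difference was 0.08, with replicate 2 higher in 55.0%. The clusters of replicate 1 without a partner were chr1:86022030-86022046 in the 5′UTR, with 33 IP and 7 SMInput reads, and chr1:86029658-86029686 in exon 4, with 31 IP and 9 SMInput reads. Each lay between stretches without clusters.

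Set beside the 1550 genes with a 3′UTR site significant in both replicates, Spata3 came 1st by the lower log2(fold change) of the 2 replicates at its top site. This value was 6.76, while the median gene had 2.7 and the quartiles were 2.32 and 3.21. Only 6 genes reached 6, and 20 reached 5. The gap to the next gene was 0.51, and 15 other genes lay above 5.19, the lower bound of the Spata3 interval in replicate 1. The first place is therefore not separated from the genes behind it beyond counting error. It is also the kind of value by which Spata3 was chosen. In each replicate taken alone, over its own significant 3′UTR clusters, Spata3 came 3rd, of 4489 genes without replicate 1 and of 3225 genes without replicate 2. Above it, named after their values were seen, were BC005537 (7.42) and 1700028J19Rik (6.97) in replicate 1, which had 5.70 and 5.92 in replicate 2, and Hdac11 (8.67) and Adam20 (7.46) in replicate 2, which had 5.76 and 6.25 in replicate 1.

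No gene stood above Spata3 in the order over both replicates. Directly below it was Adam20, of the ADAM family of membrane proteins with a metalloprotease-like domain, with a log2(fold change) of 6.25 (3.70 to 11.59) and 7.46 (4.92 to 12.80). Those values rest on 45 IP reads and 1 SMInput read in replicate 1, and on 49 IP reads and 1 SMInput read in replicate 2. Spata3 stood on more reads in the IP and in the SMInput. By the lowest possible IP RPM at the top 3′UTR site, Spata3 came 14th in replicate 1 and 18th in replicate 2 of the same 1550 genes.

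**Figure D3:**
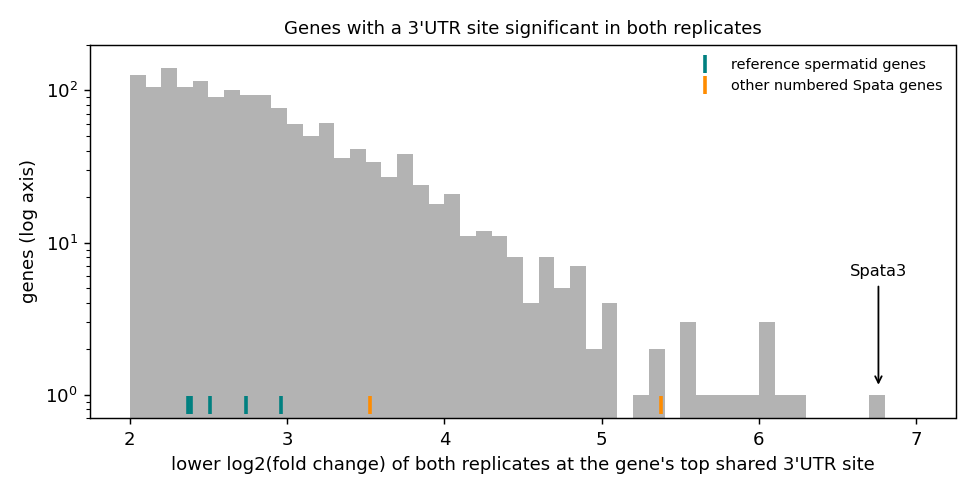
Number of genes (y axis, log axis) by the lower log2(fold change) of the 2 replicates at the top shared 3′UTR site (x axis, bins of 0.1) for 1550 genes, with Spata3 marked by an arrow at 6.76. Ticks at the base mark 5 reference genes active in spermatids (2.37 to 2.96). The lowest of them, Ldhc, was also on the list of spermatocyte markers. Further ticks mark the other genes named Spata and a number alone that had such a site (3.53 and 5.38).

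Over the whole gene, Spata3 had the 10th highest number of significant clusters of 6083 genes in replicate 1 and the 18th of 8662 in replicate 2. Many of these clusters touched, and their median width was 18 and 23 bases, beside 42 and 47 over all clusters. Their number is therefore not a number of separate sites. At the lowest read numbers possible, the highest IP cluster of Spata3 was 21st of 16683 genes and 24th of 14821. Its highest SMInput cluster was only 1104th and 1368th, with 6.61% and 9.22% of the genes above it. A higher place in the IP than in the SMInput goes with the values by which Spata3 was chosen and is no finding. Genes with at least 10 clusters of which each was significant numbered 11 of 8377 in replicate 1 and 15 of 6475 in replicate 2, Spata3 among them.

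The genes whose top 3′UTR site was most like that of Spata3 were found by the Euclidean distance over 4 values, the log2(fold change) and the log2 IP RPM in each replicate, among 1549 other genes, with IP reads of clusters at 400 taken at their lower limit. The nearest was Samd4b, which encodes an RNA-binding protein of the Smaug family, at a distance of 1.16, with a log2(fold change) of 6.10 in both replicates. Ube2b, a ubiquitin-conjugating enzyme, followed at 1.31 with 6.67 and 6.13, and Iqch at 1.47 with 6.38 and 5.90. Then came Kctd7 at 1.63, with 6.05 and 6.02, and Gabarap, a protein of autophagosome membranes, at 1.69, with 5.52 and 5.82. The IP values in replicate 2 are such limits for Spata3, Samd4b, Iqch and Gabarap. These 5 genes were picked as the nearest, over 2 replicates of 1 tissue, and the median distance from Spata3 over all genes compared was 7.18.

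For comparison, 28 genes active in spermatids were listed, many of them with abundant or stored messenger RNA. A significant cluster in both replicates was found in 19 of them (67.9%), and 5 (17.9%) had a shared 3′UTR site, with a median lower log2(fold change) of 2.51, beside the 6.76 by which Spata3 was chosen. The highest were Cabyr, a calcium-binding protein of the sperm tail, at 2.96, Ybx2, a germ cell protein that binds stored messenger RNA, at 2.74, and the acrosomal protein Acrv1 at 2.51. All 28 had a cluster in both replicates, and of the 12312 protein-coding genes for which this held, 39.1% had a significant cluster in both and 12.6% a shared 3′UTR site. Prm1 and Prm2 had 0 significant clusters, although their SMInput reads were above those of Spata3. Other genes of the list, named after their values were seen, had many: Smcp, a protein of the sperm mitochondrial capsule, had 13 of 17 and 15 of 17 clusters significant, with at least 264 and 293 IP RPM in the highest cluster, and Oaz3, an antizyme of male germ cells, had 12 of 18 and 17 of 18.

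The genes named Spata and a number are not a family by sequence. Of 23 others with a name of that form and no further letters, 10 (43.5%) had a significant cluster in both replicates and 2 (8.7%) a shared 3′UTR site, beside 39.1% and 12.6% of the 12312 protein-coding genes that, like these 23, had a cluster in both replicates. The genes with such a site were Spata31, with a lower log2(fold change) of 5.38 and the 14th place, and Spata17, with 3.53 and the 242nd place, and both are named because the count was small, after their values were seen. Outside that form of name, and also named after their values were seen, Spata31d1a and Spata31d1c had shared 3′UTR sites with lower log2 values of 2.87 and 2.7. In Spata31 all 17 clusters of replicate 1 and all 15 of replicate 2 were significant.

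The 2 nearest protein-coding genes on each side of Spata3 are given here as a description. Psmd1, a subunit of the proteasome that starts 34428 bases downstream on the same strand, had 32 and 30 clusters, of which 1 and 5 were significant. Gpr55, a G protein-coupled receptor on the opposite strand, had 9 and 7 clusters with 1 and 2 significant. Of the others, 4933407L21Rik had 2 and 0 clusters, with 0 significant, and 2810459M11Rik had 0 in both replicates. None of these 4 genes had a 3′UTR site shared by the replicates. Over all clusters, 4.92% in replicate 1 and 13.2% in replicate 2 were significant. Of the 12312 protein-coding genes with a cluster in both replicates, 12.6% had a shared 3′UTR site. Spata3 was chosen by its values, so nothing is read from how it differs from these neighbours.

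Sequence was not used to choose Spata3, and 4 short motifs were looked for on its RNA strand. GGACT is a common context of methylated adenosine in messenger RNA, and CACA is the core of the CA-rich elements known for proteins of the IGF2BP family. GAACA and AAACC were on a list made with earlier results known. The authors report both in consensus motifs of the peaks that overlapped between these replicates, so their presence here is not independent of these data. Windows of 100 bases were centred on the strongest cluster of each of the 5 shared sites, where the strongest clusters of both replicates overlapped on their common stretch, and otherwise on that of replicate 1. In these, AAACC was found in 2 sites, CACA in 1, GGACT in 1 and GAACA in 0. Of 2444 such windows at shared 3′UTR sites of all genes, 9.17% held AAACC, 37.5% CACA, 10.4% GGACT and 7.73% GAACA. The GGACT of Spata3 lay in the intron part of the exon 1 window, not in an exon, and it was not in any window of 50 bases. A match is a description of the letters, and 5 windows of 1 gene allow no comparison of shares.

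In the whole messenger RNA of Spata3, AAACC occurred 8 times, and all 8 lay in clusters of both replicates. CACA occurred 14 times, 12 of them in such clusters and 7 in exon 4, and GAACA 2 times, both in exon 4, with 1 in clusters of both replicates (3.81 and 4.32). Clusters covered 77.7% and 72.5% of the messenger RNA, so nothing is read from how many motifs lay in them. GGACT occurred 1 time, in exon 2, where the clusters had a log2(fold change) of 4.02 and 4.19, below the top of that exon. The GC content of the window was 40.0% in exon 4 and 63.0% in exon 2, with a median of 45.0% over shared 3′UTR sites. Of the 5 windows, only that of exon 4 lay wholly inside its exon, and the exon 2 window began upstream of the exon and missed most of the cluster with the most IP reads.

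Stretches of 30 bases show the letters under the sites of Spata3, all from mm10, plus strand, 5′ to 3′, in lower case with AAACC, CACA and GGACT in capitals. At the top clusters, exon 4 is shown at chr1:86029888-86029917, exon 1 at chr1:86022310-86022339, exon 3 at chr1:86026414-86026443 and the alternative last exon at chr1:86029212-86029241. Those of exon 1 and exon 3 hold 1 motif each, and those of exon 4 and the alternative last exon hold 0, as does the top of exon 2.
exon 4, top: gtctgtacatcttttgtgtcatttgctctg
exon 1, top: cccatggaacctAAACCaattcttccaagc
exon 3, top: aAAACCgtcaaggaagtactgcgctccccg
alternative last exon, top: atccagtttccatcaaaggatcttacttgt
The other stretches were taken around a motif, so its presence in them is no finding. They show where motifs lay further upstream in exon 4, at chr1:86029758-86029787 and chr1:86029829-86029858, and around the GGACT of exon 2, at chr1:86024435-86024464.
exon 4, first: acagCACACAggaAAACCatccCACACAaa
exon 4, second: accattCACAttcAAACCtcttatagcttc
exon 2: tcctcctacctcgGGACTggtcatccatgc
The strongest cluster of exon 4 in both replicates (6.76 and 6.92) holds 1 CACA, at chr1:86029920-86029923, just after its top stretch.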

How the data were processed

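The authors removed adapters with cutadapt and ribosomal reads with Bowtie2, aligned reads to mm10 with STAR, collapsed PCR duplicates and called clusters with Clipper, in each replicate of IP and SMInput. The deposited −log10 values are the authors' −log10(P value) of IP against SMInput reads per cluster, from 0 where the IP was not enriched to a cap of 400. The deposited log2 values are the authors' log2(fold change), scaled to library totals. All 4 value columns were used, and 0 per-sample columns were left out.

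Library totals and reads per cluster were worked out as the whole numbers that return both listed values. One solution was found for 99.9774% and 99.9284% of the clusters between 0 and 400. Regions came from basic GENCODE M21 transcripts at the cluster centre, 3′UTR before coding sequence, and curated RefSeq was the alternative. Significant clusters that shared at least 1 base on the same strand were joined into sites where they touched. A gene's rank used the lower log2(fold change) of both replicates. Each ratio has an exact 95% Clopper-Pearson interval.

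Besides Spata3, the text names the 2 nearest protein-coding genes on each side, the 5 most alike, those directly above and below in the rank, the 3 highest of the reference genes, and cell type markers. The remaining genes were named after their values were seen, as stated where they appear. Members and lists were chosen with earlier results of these data known, and no test was made. Alternatives covered thresholds, gene and region assignment, overlap, the measure of strength, read minimums, motif windows and each replicate alone. The steps were tested on simulated data. Tools were Python 3.11.15, NumPy 2.4.6, pandas 2.3.3, SciPy 1.17.1, pysam 0.24.0 and Matplotlib 3.10.9.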

Additional observations from a re-analysis of the deposited data

How the results depend on the processing

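Of 34 alternatives, 23 left the Spata3 values within the spread or within 1.5 times the count, and 11 moved them. With coding sequence before 3′UTR or with curated RefSeq, the clusters in the 3′UTR were 8 in replicate 1 and 6 in replicate 2, since exon 2 no longer counts as 3′UTR. By the planned order, −log10(P value) with ties broken by fold change, the strongest 3′UTR cluster of replicate 1 had a log2(fold change) of 5.45. With coding sequence before 3′UTR or with curated RefSeq, both chosen after seeing the data for this result, it was 6.76. Taken by fold change, the strongest cluster of replicate 1 also had 6.76. Taken by IP reads at the lowest numbers possible, the strongest cluster of replicate 2 had 5.6, because at those numbers it lay in exon 2. Its reads and those of the cluster with the highest fold change are lower limits, so their order by IP reads is not known. Without replicate 1 and without replicate 2 the rank ranged from 3 to 3, since 2 genes were above Spata3 in each replicate and below it in the other. With at least 3 SMInput reads, CDS before 3′UTR and curated RefSeq, also chosen after seeing the data, the rank was 1. GGACT was in 0 sites with windows of 50 bases, as the match lay outside them. The significant clusters of replicate 1 were 29 with both thresholds at 3.

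Each fold change already sets the IP against the SMInput of its own replicate. No test, paired or not, was made, because Spata3 was chosen by these values. With 2 replicates the spread rests on 2 values, and the top site of Spata3 rests on 3 SMInput reads in replicate 1, which sets the width of its interval. Read numbers of clusters listed at 400 are lower limits.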
